A study of Arabidopsis thaliana with 6 samples.

Results

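Reads from the nuclear ribosomal DNA of Arabidopsis thaliana pollen are described here through 5 of the 60936 annotated IDs in the count tables, taken by ID: AT2G01010 and AT3G41768 for 18S rRNA, AT2G01020 and AT3G41979 for 5.8S rRNA, and AT2G01021, a short annotated gene that lies inside the rDNA. Small RNAs were sequenced from pollen of accession Col, from wild type (WT) and from paps1-3, which carries a mutant allele of the poly(A) polymerase gene PAPS1. Each genotype had 3 libraries, numbered 15, 19 and 25 for WT and 16, 20 and 26 for paps1-3. Per the labels' protocols, each of 3 isolations sorted WT and paps1-3 grains from a shared sample, and libraries were made for fragments of about 19 to 25 nt. Genotype and sort gate therefore cannot be told apart, and the labels give no age, treatment or plant number. Whether the isolations used separate plants is not stated, and the spread behind each p-value may therefore be technical.

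The libraries held 5562287 to 10139424 counted reads of 18 to 28 nt, and 13464 IDs passed the count filter for testing, all 5 rDNA IDs among them. PAPS1 itself had 4 to 7 reads in a WT library and 0, 0 and 1 in paps1-3, too few to check the genotype labels. Vegetative-cell markers carried 800 to 1441 reads per 1000000 counted reads in a library, led by the pectin methylesterase gene VGD1, while sperm markers carried 5.94 to 11.99, leaf markers 2.27 to 13.1 and tapetum markers 0.360 to 1.68. In the edgeR fit below, 2 of 4 tested vegetative markers were called higher in paps1-3 and 1 lower. Of 3 tested sperm markers 1 was called lower. Over all IDs 14.3% were called higher and 4.00% lower. Small RNA reads do not measure a marker's messenger RNA, so these sums do not give the make-up of cells. Mitochondrial features took 4.94% ± 0.878 of counted reads in WT and 15.5% ± 2.69 in paps1-3 (SD, n = 3 each), and the WT library 15 had the longest reads of the 6. Both facts touch the values below, and their part in them was not tested except where a value without them is given.

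Ribosomal RNA is the core of the ribosome. RNA polymerase I copies each rDNA repeat into one long precursor that holds 18S, 5.8S and 25S rRNA in that order, and nucleases cut the spacers away, guided in part by small nucleolar RNAs. The nuclear exosome and XRN exonucleases destroy by-products and faulty precursors, and short poly(A) tails can mark such RNA for the exosome. PAPS1 encodes a nuclear poly(A) polymerase known for adding tails to messenger RNA. The repeats lie in long arrays, of which the genome assembly holds only a few copies, and short pieces of abundant rRNA are common in small RNA libraries.

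The IDs come in near-identical copies, and this decides what a count on each can mean. In the RefSeq annotation of TAIR10.1, AT2G01010 covers 1808 bases of the plus strand at chr2:3706-5513 and AT3G41768 the same length at chr3:14197677-14199484, both as 18S rRNA genes. The 18S copies differ at 2 positions, T489C and T1327C, with the chromosome 2 base first and positions counted from 1 at the first base of 18S. The surrounding bases are shown because they are the only places where a read can tell the copies apart, with the differing base in capitals. They lie at chr2:4174-4214 and chr3:14198145-14198185 for position 489, and at chr2:5012-5052 and chr3:14198983-14199023 for position 1327.
AT2G01010 around 489: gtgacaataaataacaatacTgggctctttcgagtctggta
AT3G41768 around 489: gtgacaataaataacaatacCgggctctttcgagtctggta
AT2G01010 around 1327: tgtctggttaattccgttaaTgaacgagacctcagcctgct
AT3G41768 around 1327: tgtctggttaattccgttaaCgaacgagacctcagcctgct

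The bases flanking the 18S copies were identical for 162 bases before and 113 after them, farther than any read of at most 28 nt that overlaps the IDs can reach. Of the 1791 places where an 18-nt read can start within 18S, 36 (2.01%) cover one of the differing positions, and of 1781 places for a 28-nt read, 56 (3.14%) do. The 5.8S copies, AT2G01020 at chr2:5782-5945 and AT3G41979 at chr3:14199753-14199916, do not differ at any of their 164 bases. AT2G01021 covers 102 bases at chr2:6571-6672, where it starts 625 bases after the end of the 5.8S, in the stretch that the order of the precursor gives to 25S rRNA. The annotation lists it as protein-coding with an unknown product, and the same 102 bases stand at chr3:14200542-14200643, under no ID of the count tables that names them. The 25S and 5S rRNA genes are not analysed here under IDs of their own. The 5.8S and AT2G01021 sequences are shown because reads on them differ from 18S reads in the comparisons that follow.
5.8S (AT2G01020 and AT3G41979): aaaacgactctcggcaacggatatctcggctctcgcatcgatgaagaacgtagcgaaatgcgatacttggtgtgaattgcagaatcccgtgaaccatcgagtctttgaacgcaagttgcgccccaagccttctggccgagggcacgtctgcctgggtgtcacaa
AT2G01021: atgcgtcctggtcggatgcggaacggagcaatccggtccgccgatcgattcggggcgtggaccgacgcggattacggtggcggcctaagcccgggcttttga

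Pieces of these RNAs made up most of the reads in every library. Together the 5 IDs held 59.3%, 55.2% and 54.0% of counted reads in WT 15, 19 and 25, and 62.4%, 52.0% and 52.9% in paps1-3 16, 20 and 26. The ranges overlapped, with means of 56.2% ± 2.81 and 55.8% ± 5.78 (SD, n = 3 each, exact two-sided permutation p = 0.9). Over the reads outside mitochondrial features, the same IDs held 61.9%, 58.6% and 56.7% in WT against 71.6%, 63.5% and 62.7% in paps1-3, a mean difference of 6.87 percentage points without overlap (exact permutation p = 0.1, below which a test of 3 against 3 libraries cannot go). The mitochondrial reads left out were on average 4.94% of counted reads in WT and 15.5% in paps1-3. How many of all IDs separated on this denominator is not given, so the separation cannot be called particular to the rDNA IDs. The sign of the difference thus changed with the denominator. In bulk RNA such as this, fewer cells of a type and less RNA per cell cannot be told apart.

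The 18S rRNA, the RNA of the small ribosomal subunit, gave most of these reads. Its copies together held 48.7%, 47.2% and 47.4% of counted reads in WT and 55.8%, 46.2% and 47.6% in paps1-3 (exact permutation p = 0.8). Only paps1-3 16 stood above the WT range, and without libraries 15 and 16 the difference was −0.35 percentage points instead of 2.15. On the chromosome 2 copy, AT2G01010, the libraries held 2219332, 2012401 and 1912729 reads in WT and 1778108, 1030253 and 1910130 in paps1-3, or 21.02% ± 0.755 and 20.1% ± 2.096 of counted reads. On the chromosome 3 copy, AT3G41768, they held 2717187, 2591053 and 2496763 in WT and 2642964, 1540879 and 2813248 in paps1-3, or 26.7% ± 0.145 and 29.8% ± 3.11. The shares of the chromosome 3 copy did not overlap and were higher in paps1-3, those of the chromosome 2 copy overlapped.

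The 5.8S rRNA, which pairs with 25S in the large subunit, had a lower mean share in paps1-3, with overlapping libraries. Its copies together held 9.82%, 7.18% and 5.90% of counted reads in WT and 5.95%, 5.24% and 4.78% in paps1-3, with means of 7.63% ± 1.997 and 5.32% ± 0.587 (SD, n = 3 each, ratio 0.697). WT 15 was highest by far and WT 25 fell just inside the paps1-3 range, so the groups overlapped (exact permutation p = 0.2). Within adjacent library numbers the share was lower in paps1-3 in 3 of 3 pairs, a mean difference of −2.31 percentage points (exact sign-flip permutation p = 0.25, the lowest possible with 3 pairs). AT2G01020 had 497041, 349859 and 275109 reads in WT and 235245, 145454 and 236615 in paps1-3. AT3G41979, its identical copy, had 498506, 350918 and 274599 in WT and 235418, 146046 and 237701 in paps1-3.

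AT2G01021 had 83892, 79681 and 67756 reads in WT and 51803, 30164 and 53289 in paps1-3. These were 0.827%, 0.817% and 0.728% of counted reads in WT and 0.654%, 0.542% and 0.537% in paps1-3. All 3 paps1-3 values lay below all WT values, at 0.578% ± 0.0663 against 0.791% ± 0.0548 (SD, n = 3 each), a ratio of 0.731. The exact permutation p was 0.1, and 0.3 after Benjamini-Hochberg adjustment over the 9 exact permutation tests of shares, lengths and ratios. Among all 13464 tested IDs, 48.2% had non-overlapping lower shares in paps1-3 and 8.18% non-overlapping higher ones. A lower share like that of AT2G01021 was thus common in the pool, and a higher one like that of AT3G41768 was less common. The share of AT3G41768 depends on how reads were split between the near-identical 18S copies, and the summed 18S share overlapped between genotypes.

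**Figure D1:**
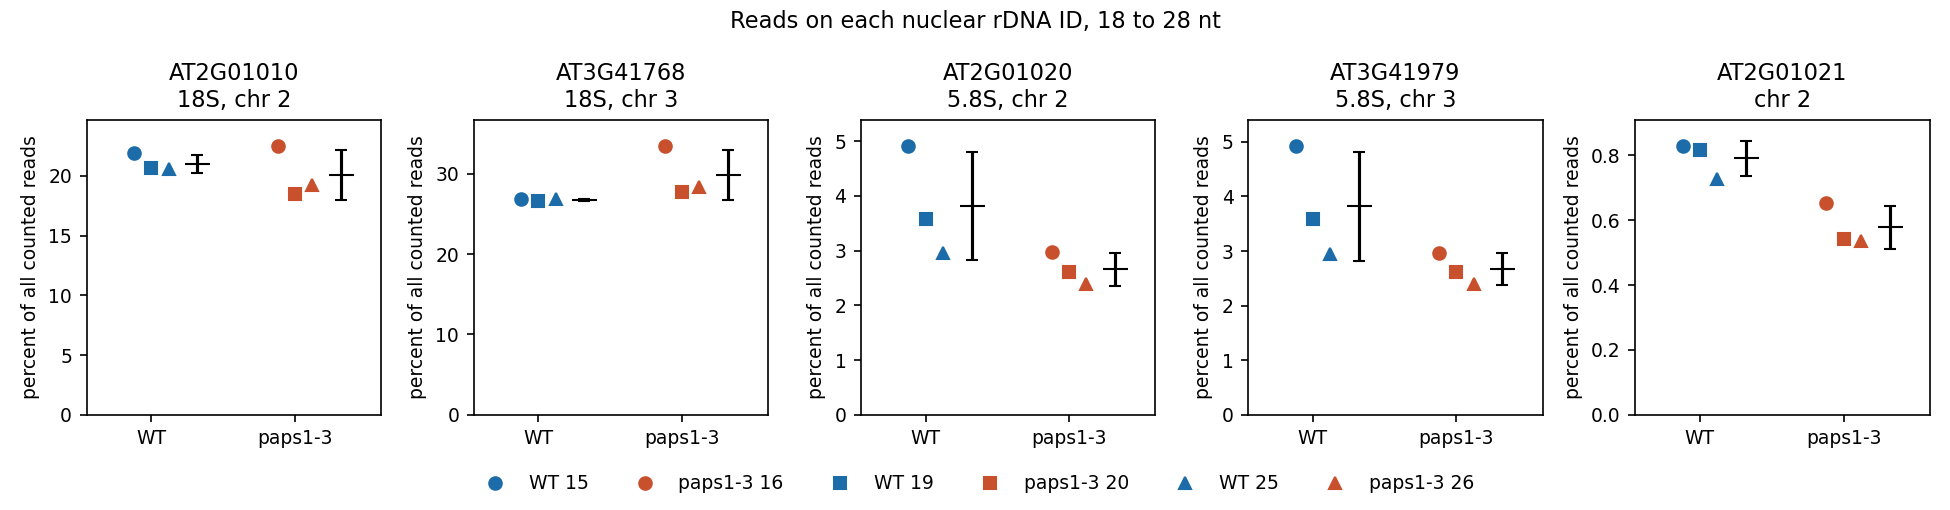
Percent of all counted reads on each of the 5 rDNA IDs, 1 panel per ID, with 1 point per library and the mean ± SD of each genotype as a black bar; the same symbol marks libraries of adjacent number. AT2G01021 is lower in all 3 paps1-3 libraries, the chromosome 3 copy of 18S is higher in all 3, and the other 3 IDs overlap. The summed share of both 18S copies, not drawn, overlaps.

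Per kilobase the copies on chromosome 2 can be set beside each other. In WT, AT2G01020 (5.8S) had 232556 ± 60597 reads per kilobase per 1000000 counted reads, AT2G01010 (18S) 116246 ± 4178 and AT2G01021 77502 ± 5368 (SD, n = 3). In paps1-3 the levels on this scale were 162015 ± 18033, 111049 ± 11591 and 56657 ± 6497. The order of the 3 levels was the same in both genotypes, and none of the 3 ranges of a genotype overlapped with another. A count on either 18S copy alone is uncertain. With both copies summed, the WT means were 465516 for 5.8S and 264040 for 18S. AT2G01021 has no ID for its chromosome 3 place, and how its reads were shared is not stated. The size of the gaps between the levels therefore depends on how copies were counted.

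Within a library, reads can be set against its 18S reads, which takes out the size of the rest of the pool. For every 100 reads on 18S, there were 20.2, 15.2 and 12.5 reads on 5.8S in WT and 10.6, 11.3 and 10.04 in paps1-3. All paps1-3 values were below all WT values, and the log2 ratio differed by −0.55 (exact permutation p = 0.1, adjusted 0.3 over the 9 tests). For AT2G01021 the values were 1.70, 1.73 and 1.54 reads per 100 18S reads in WT and 1.17, 1.17 and 1.13 in paps1-3. They too did not overlap, the paps1-3 libraries lay close together, and the log2 ratio differed by −0.51 (exact permutation p = 0.1, adjusted 0.3). Of all tested IDs, 47.1% had a non-overlapping lower ratio to 18S in paps1-3 and 6.72% a higher one, so a lower ratio is near the background of the pool. Both ratios kept their sign when only chromosome 2 IDs were used and when any 1 library was left out.

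These ratios were also taken at each read length. At 8 of the 11 read lengths the 5.8S reads per 100 18S reads of that length were lower in every paps1-3 library, with overlap at 19, 23 and 28 nt. For AT2G01021 this held at 7 of 11 lengths, 18 to 23 nt and 28 nt. The lengths come from the same 6 libraries and are not independent. How many other IDs did the same at each length is not given, and over all lengths 47.1% of tested IDs had a non-overlapping lower ratio. At 18 nt AT2G01021 had 1.91, 1.69 and 1.39 reads per 100 18S reads in WT and 0.826, 0.885 and 0.698 in paps1-3, a ratio of means of 0.483. At 26 nt the values were 1.48, 1.91 and 2.21 in WT and 2.18, 2.33 and 2.34 in paps1-3, where the groups overlapped and the paps1-3 mean was the higher. The lower values at 28 nt were 1.83, 1.81 and 1.81 in paps1-3 against 1.85, 2.02 and 2.07 in WT.

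**Figure D2:**
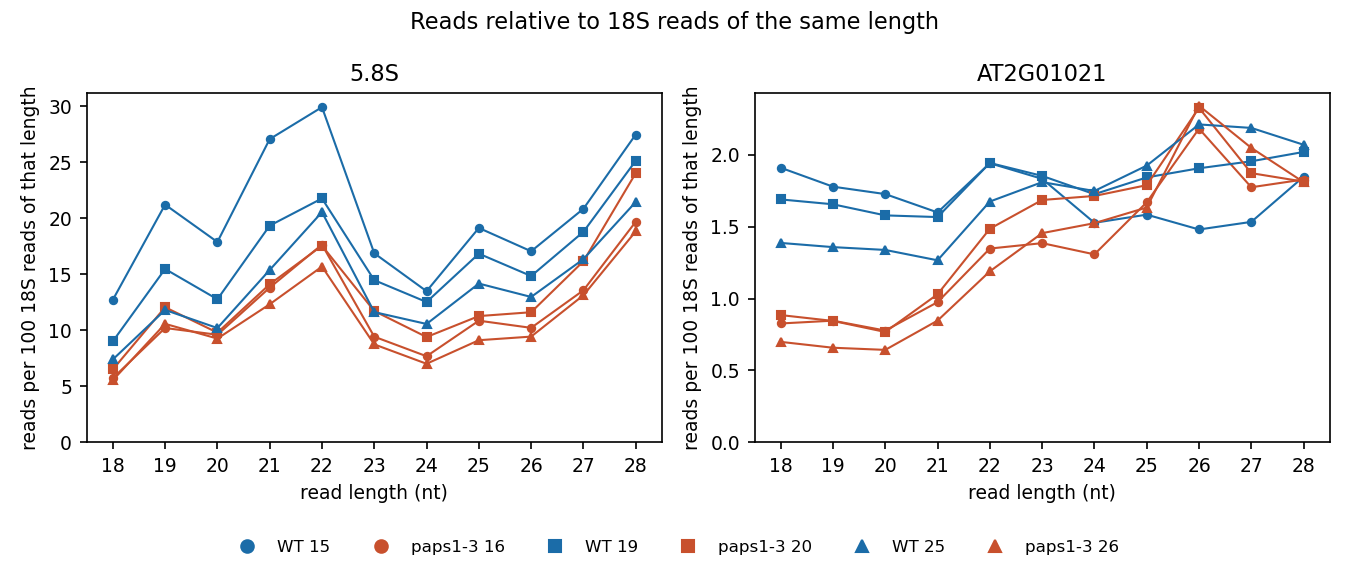
Reads on 5.8S (left) and AT2G01021 (right) per 100 18S reads of the same length, for read lengths of 18 to 28 nt, with 1 line per library. In the right panel the paps1-3 lines lie well below the WT lines at 18 to 21 nt and overlap with them at 24 to 27 nt.

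The length profiles of the 3 RNAs differed from one another, and so did the libraries of one RNA. Reads of 18 to 20 nt, for example, were 26.6% of 18S reads in WT 15 and 53.4% in paps1-3 20. The reads of 18S were most often 18 nt long in 4 libraries, 20 nt in paps1-3 26 and 24 nt in WT 15, and in all 6 libraries their share was lowest at 28 nt. Those of 5.8S peaked at 21 nt in 4 libraries, at 22 nt in WT 15 and at 19 nt in paps1-3 20. Averaged over the 6 libraries, 11.5% of reads would have to change length to turn the 18S profile into the 5.8S one (the total variation distance), 10.4% for 18S and AT2G01021 and 14.2% for 5.8S and AT2G01021. Among 991 other IDs with a mean of at least 50 CPM, the profiles nearest to 18S were those of AT3G26110 at 2.504%, the joined ID AT5G04170,AT5G04180 at 3.57% and AT3G02480 at 3.63%. Nearest to 5.8S were DAF1 at 6.24%, RALFL9, which encodes a RALF-like peptide, at 6.45% and SFH12 at 6.66%. Nearest to AT2G01021 were UNE15 at 3.25%, AT2G27180 at 3.27% and AT4G33860 at 3.42%. The median distance to the 991 IDs was 26.2% for 18S, 26.7% for 5.8S and 27.2% for AT2G01021. The 3 RNAs were thus nearer to one another than to the typical ID. The profiles share libraries, so these distances are descriptions.

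Mean length in nt overlapped between the genotypes for each of the 3 RNAs. For 18S it was 22.9, 21.4 and 21.1 nt in WT and 21.6, 20.98 and 21.7 nt in paps1-3, with an exact permutation p of 0.8. Over all IDs with reads in every library, 4.37% had non-overlapping longer and 6.39% non-overlapping shorter mean lengths in paps1-3. For 5.8S it was 22.96, 21.8 and 21.6 nt in WT and 22.1, 21.5 and 22.04 nt in paps1-3 (exact permutation p = 0.8). Reads on all other IDs had means of 22.4, 21.4 and 21.1 nt in WT and 21.7, 21.3 and 21.8 nt in paps1-3, and WT 15 was the longest in each case. For AT2G01021 the means were 22.7, 21.6 and 21.6 nt in WT and 22.6, 21.9 and 22.9 nt in paps1-3 (exact permutation p = 0.3).

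Relative to the mean of all other IDs in the same library, the genotypes did not overlap. Reads of 18S were longer than the others by 0.42, 0.03 and 0.03 nt in WT and differed by −0.09, −0.29 and −0.05 nt in paps1-3. For 5.8S the differences were 0.51, 0.42 and 0.50 nt in WT and 0.38, 0.20 and 0.29 nt in paps1-3, again lower. For AT2G01021 they were 0.28, 0.18 and 0.45 nt in WT and 0.85, 0.63 and 1.16 nt in paps1-3, which was higher. Of all IDs with reads in every library, 6.22% had a non-overlapping higher and 5.77% a non-overlapping lower difference of this kind. The other IDs also differed in make-up. Mitochondrial features had means of 4.94% of counted reads in WT and 15.5% in paps1-3, and miRNA loci 3.14% and 1.39%. The part of this in the differences was not tested.

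Against 18S of the same library, AT2G01021 reads were −0.13, 0.15 and 0.43 nt longer in WT and 0.94, 0.92 and 1.21 nt longer in paps1-3, without overlap. Both relative measures were chosen after their values were seen and are described with no test, and 12.6% of IDs had a non-overlapping higher and 1.73% a lower length relative to 18S. Reads of 26 to 28 nt were 22.01%, 11.8% and 12.1% of AT2G01021 reads in WT and 21.8%, 14.3% and 23.1% in paps1-3. For 18S the same share was 23.3%, 10.4% and 8.56% in WT and 13.05%, 8.16% and 12.3% in paps1-3. Long reads thus took a larger share of AT2G01021 than of 18S in every library but WT 15.

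**Figure D3:**
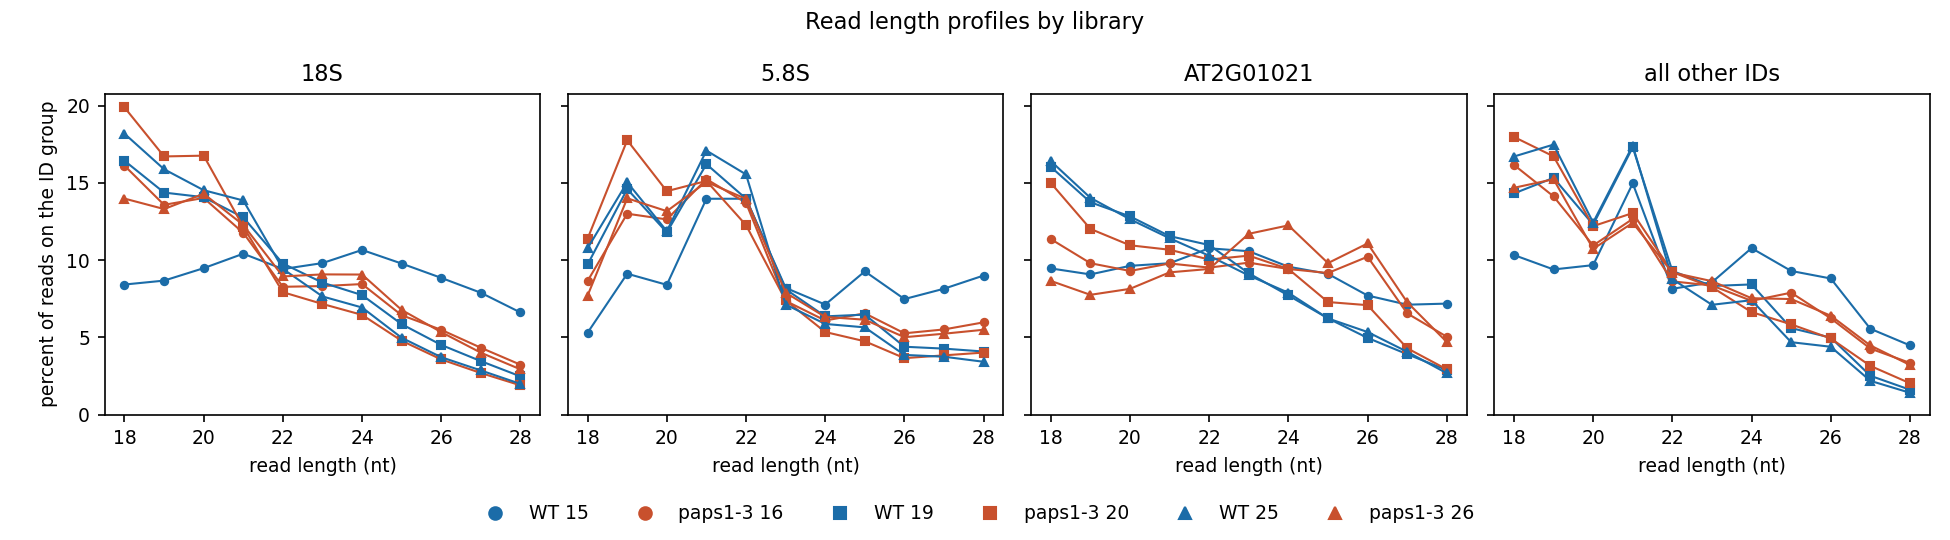
Percent of reads at each length from 18 to 28 nt on 18S, 5.8S, AT2G01021 and all other IDs, with 1 line per library. WT 15 holds fewer 18-nt reads and more reads above 24 nt than the other 5 libraries on 18S and 5.8S, and on AT2G01021 paps1-3 16 and 26 hold more 26-nt reads than any WT library.

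The weight of rDNA in the pool was also compared at each length. At 20 nt the 5 IDs held 58.4%, 57.9% and 57.3% of the reads of that length in WT and 67.8%, 59.4% and 59.7% in paps1-3, higher without overlap. At 28 nt they held 69.5%, 67.3% and 64.1% in WT and 63.6%, 53.1% and 52.6% in paps1-3, lower without overlap. At the other 9 lengths the genotypes overlapped. Full separation of 3 against 3 libraries has an exact permutation p of 0.1. The 11 lengths come from the same libraries and are not independent, so the 1 higher and 1 lower are described with no conclusion. How many other IDs separated at 20 or 28 nt is not given.

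How the counts fell on the copies differed between 18S and 5.8S. The identical 5.8S copies shared their reads evenly: the chromosome 3 copy held 49.95% to 50.11% of them, and each library's exact 95% Clopper-Pearson interval held 50%. Split by length, 2 of 66 values departed from an even split at an unadjusted exact binomial p under 0.05, with chromosome 3 over chromosome 2 ratios of 0.987 to 1.02. The 18S copies, which differ at 2 bases, did not: all 66 values favoured chromosome 3. These intervals and tests cover counting error only, since reads made by PCR are not independent molecules.

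Over all lengths, the chromosome 3 copy of 18S had 1.22, 1.29 and 1.31 times the reads of the chromosome 2 copy in WT and 1.49, 1.496 and 1.47 times in paps1-3. At 18 nt the ratios were 1.49, 1.65 and 1.73 in WT and 2.26, 2.25 and 2.24 in paps1-3. The paps1-3 ratios lay above all WT ratios at the 7 lengths from 18 to 24 nt and overlapped with them from 25 nt on, and at 27 nt they ran from 1.08 to 1.13 in the 6 libraries. The surplus on chromosome 3 was 19.8%, 24.4% and 26.7% of all 18-nt 18S reads in WT and 38.6%, 38.5% and 38.3% in paps1-3. Over all lengths it came to 49101, 59301 and 62717 reads per 1000000 counted reads in WT and 109246, 91801 and 91015 in paps1-3. The counts are given per ID and not per position, so which reads make up the surplus was not tested, and a count on either 18S copy alone is uncertain. The sums over both copies do not depend on how a read was shared between them. No difference between genotypes in these ratios was tested, since they were described only.

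**Figure D4:**
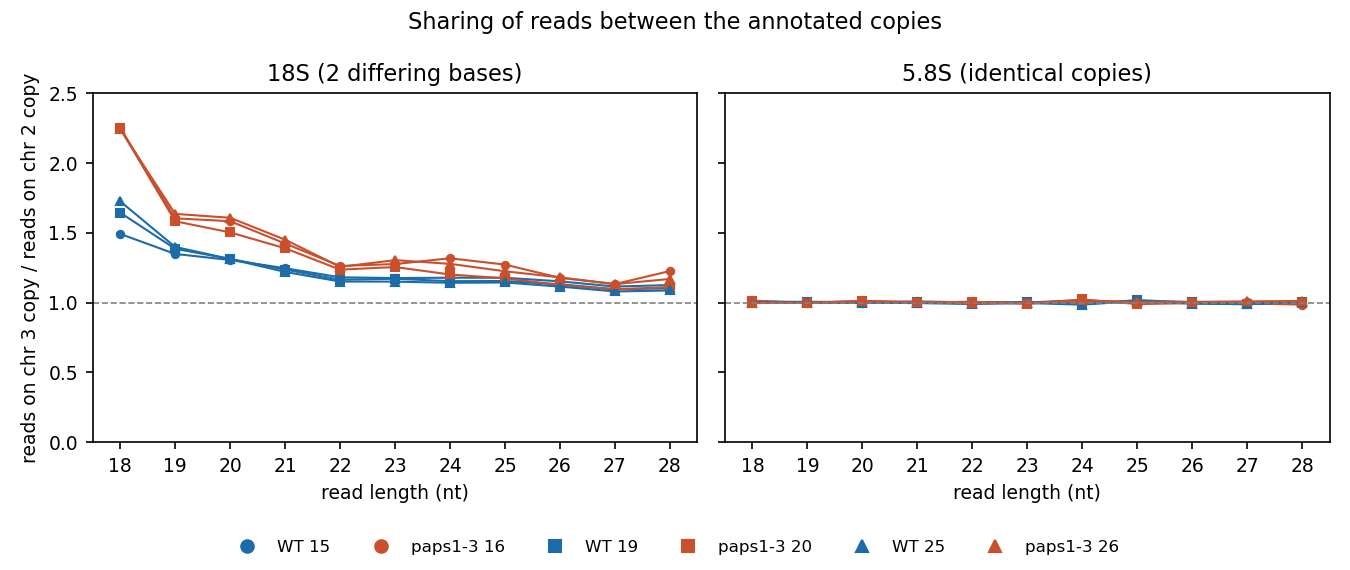
Reads on the chromosome 3 copy divided by reads on the chromosome 2 copy for 18S (left) and 5.8S (right), by read length from 18 to 28 nt, with 1 line per library and a dashed line at an even split. The 18S ratio is highest at 18 nt, 1.49 to 1.73 in WT and 2.24 to 2.26 in paps1-3, and the 5.8S ratio stays between 0.987 and 1.02.

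The fit over all IDs asked whether the rDNA IDs moved against the rest of the pool. With edgeR's robust quasi-likelihood test and TMM scaling, which sets the bulk of IDs near no change, 0 of 5 rDNA IDs were called at a Benjamini-Hochberg adjusted p under 0.05, where 14.3% of tested IDs were called higher and 4.00% lower. AT3G41768 stood at a log2 fold change of 1.02, with an SE of 0.42 (edgeR adjusted p = 0.116), and was the 1 ID of the 5 with an unadjusted p under 0.05, at 0.0308. AT2G01010 had 0.79, with an SE of 0.42 (edgeR adjusted p = 0.217). AT2G01021 had 0.41 (SE 0.39, edgeR adjusted p = 0.517), and the 5.8S IDs AT2G01020 and AT3G41979 both had 0.31 (SE 0.44, edgeR adjusted p = 0.678 and 0.677).

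A count on either 18S copy alone is uncertain, and the 18S copies were not fitted as a sum. The call on AT3G41768 depended on the fit. It was called higher by DESeq2 (log2 fold change 1.04, DESeq2 adjusted p = 0.0117, the 1 call of the 5 there), with scaling to miRNA loci (1.34, edgeR adjusted p = 0.0175), with adjacent library numbers as a replicate block (0.96, edgeR adjusted p = 0.0161) and without WT 15 (1.30, edgeR adjusted p = 0.0168). AT2G01010 was called with scaling to miRNA loci (1.11, edgeR adjusted p = 0.047) and without WT 15 (1.105, edgeR adjusted p = 0.0361). In these fits 13.7% (DESeq2), 21.9% (miRNA loci), 18.8% (block) and 17.6% (without WT 15) of all tested IDs were called higher. Without paps1-3 16 the log2 fold change of AT2G01021 was 0.049 and without WT 15 it was 0.72, neither of them called. With scaling to total counted reads, 0 of 5 were called, against 6.02% of IDs higher and 40.3% lower, and the log2 fold changes were −0.07 for AT2G01010, 0.16 for AT3G41768, −0.52 for both 5.8S IDs and −0.45 for AT2G01021. The median over all IDs was −0.15 with TMM, −0.94 with total reads and 0.23 with miRNA loci, so all 5 rDNA IDs stood above the median of the pool under TMM and total-read scaling while their own sign changed for 4 of the 5.

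Split by length, 0 of 55 combinations of ID and length were called by edgeR, with 15.8% of all 25585 tested combinations called higher and 2.13% lower. The values nearest to a call were those of AT3G41768, with a log2 fold change of 1.29 at 20 nt (edgeR adjusted p = 0.0553) and 1.35 at 18 nt (edgeR adjusted p = 0.0626). On AT2G01021 the log2 fold change was 0.13 at 20 nt and 1.05 at 26 nt, where the edgeR adjusted p was 0.163. With total-read scaling again 0 of 55 were called, against 7.66% of combinations higher and 25.0% lower. Without WT 15, 24 of the 55 were called higher, where 28.6% of all combinations were. With the replicate block 4 were called higher, against 24.1% of all combinations, and with scaling to miRNA loci 9 were, against 25.1%. RLE factors called 2 of them (16.6% of all) and the fit without libraries 15 and 16 called 2 (24.6% of all). The fit with no count filter called 3, against 1.37% of 319238 combinations. With the filter 25585 were tested, so that lower share includes many combinations with few reads.

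**Figure D5:**
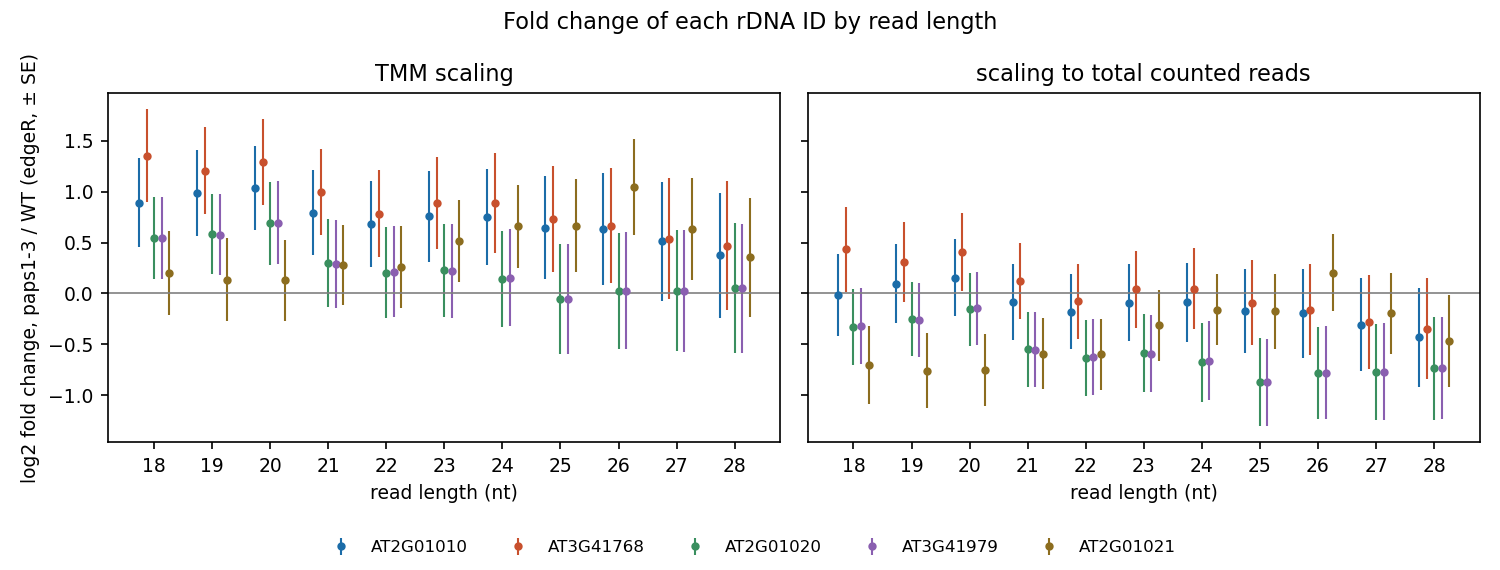
Log2 fold change of paps1-3 over WT for each rDNA ID at each read length from 18 to 28 nt, with TMM scaling (left) and scaling to total counted reads (right); points are edgeR estimates and bars are ± 1 SE. No point is called in either panel, and the whole set lies lower with total-read scaling, with AT3G41768 at 18 nt at 1.35 on the left.

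Genes on a list around the making and decay of rRNA gave few small RNA reads in this pollen. The 34 genes cover RNA polymerase I, rRNA processing and RNA decay. They also include HDA6 and the small RNA genes DCL1 to DCL4, RDR2 and RDR6. Of the 34, 13 passed the count filter, DCL1 among them, and 0 were called with edgeR and TMM and 0 with DESeq2. Of all tested IDs, 14.3% were called higher and 4.00% lower with edgeR and TMM. With DESeq2 the shares were 13.7% and 2.13%, so few calls among 13 genes say little. An unadjusted edgeR p under 0.05 was found for 2, the nucleolin gene NUC1 and XRN3. The median log2 fold change of the 13 was 0.12, against −0.15 for all IDs. XRN3, a nuclear exonuclease and the list member with most reads, had 67, 90 and 98 reads in WT and 49, 40 and 81 in paps1-3 (log2 fold change 0.54, SE 0.21, edgeR adjusted p = 0.0996). Scaled to total counted reads, the fit put 3 of the 13 below the threshold as lower, where 40.3% of all IDs were lower: the RNA polymerase I subunit genes NRPA1 and NRPA2 and the exosome nuclease gene RRP44A, all 3 named after their values were seen. Such reads do not measure the messenger RNA of these genes.

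Small nucleolar RNAs, which guide modification and cutting of rRNA, gave more reads in paps1-3. Of 66 annotated snoRNA genes 61 were tested, and 54 rose in paps1-3 and 0 fell with edgeR and TMM, with a median log2 fold change of 1.97 and 14.3% of all IDs called higher. With total-read scaling 43 rose and 0 fell, with a median of 1.17 and 6.02% of all IDs called higher, and with the replicate block 60 of 61 rose, with 18.8% of all IDs called higher. The snoRNA gene with most reads, AT4G39361, had 378, 324 and 251 reads in WT and 828, 520 and 1425 in paps1-3, a log2 fold change of 2.60 with an SE of 0.35 (edgeR adjusted p = 0.000284). AT4G02555 and AT4G39363, the next by reads, had log2 fold changes of 2.12 and 2.48 (edgeR adjusted p = 0.00262 and 0.00019). The highest log2 fold change among the 5 rDNA IDs on this scale was the 1.02 of AT3G41768. Whether snoRNA and rDNA IDs differ in response was not tested.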

How the data were processed

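Small RNA libraries of sorted pollen were made and sequenced by the submitters (TruSeq small RNA kit, Illumina HiSeq), per the labels' protocols. The deposited files hold raw counts of reads per annotated segment, not normalized, with 1 column for each of 11 read lengths, per the file headers. The submitters' processing notes name TAIR10 as the genome and Trimmomatic, BWA, SAMtools and bedtools as tools, without versions. The handling of strand, and of reads with several matching places, matters for rDNA copies and is not stated in these sources.

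Counts were summed per ID over 176473 segments, and copies were added where stated. Total variation distance is the share of reads that would have to change length to turn one profile into another. Coordinates and sequences come from RefSeq's TAIR10.1; the files carry no coordinates. All IDs were fitted together with edgeR 4.0.16 (R 4.3.3): robust quasi-likelihood test, TMM factors (0.550 to 1.52), filterByExpr, no block, Benjamini-Hochberg at 0.05. Shares, mean lengths and log2 ratios were compared by exact two-sided permutation over 20 assignments. Alternatives were DESeq2 1.42.0, limma-trend 3.58.1 (prior count 2), other scalings, count filters, length ranges and denominators, a replicate block, and each library left out. The members, lists and tests were chosen with earlier results of these data known. Named were the 5 rDNA IDs, PAPS1, called members and the most read member of the rRNA list, the 3 snoRNA genes with most reads and the 3 nearest length profiles.

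Adjacent library numbers were taken as the isolations for the block, because deviations from genotype means correlated at 0.46, 0.29 and 0.28 for 15 and 16, 19 and 20, and 25 and 26, all above 0.1, and at −0.35 to 0.15 for other pairs. No label gives this pairing, and the correlations come from these same counts. The 0.1 mark did not single it out, since paps1-3 20 and WT 25, which are not adjacent, also passed it at 0.15. Calls with the block and counts of pairs rest on this choice. Tested on simulated data with 200 changed IDs, the fit over 13464 IDs recovered 21% of 2-fold and 96% of 4-fold changes. Changes near 2-fold were thus often missed there, and 5.65% of the calls were false. The simulated counts had a fixed dispersion, as many IDs raised as lowered, and no shift of the whole pool. These rates need not hold for the real libraries. By length, over 25585 combinations, it recovered 18% and 89%.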

Additional observations from a re-analysis of the deposited data

How the results depend on the processing

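Across 357 comparisons of a result with an alternative setting, 312 kept direction and side of the threshold. Shares, mean lengths and log2 ratios to other rDNA reads had exact permutation tests, which could not pass the threshold with so few libraries. The ratios between copies had no test. For these results only the direction could change, so the 312 says little about their side of the threshold. With scaling to total counted reads and to reads outside the rDNA IDs, the log2 fold changes turned to −0.066 and −0.053 for AT2G01010, −0.52 and −0.52 for AT2G01020, −0.52 and −0.52 for AT3G41979, −0.45 and −0.44 for AT2G01021 and −0.29 and −0.29 for XRN3 (AT1G75660). New calls came for AT2G01010 with miRNA scaling (1.11) and for AT3G41768 with miRNA scaling (1.34), DESeq2 (1.04) and the replicate block (0.96); XRN3 was called with miRNA scaling (0.90, edgeR adjusted p = 0.00669) and without WT 15 (0.63, edgeR adjusted p = 0.0491). Leaving out 1 library at a time gave 0.45 to 1.105 for AT2G01010, 0.68 to 1.30 for AT3G41768, −0.043 to 0.84 for AT2G01020, −0.039 to 0.84 for AT3G41979, 0.049 to 0.72 for AT2G01021 and 0.46 to 0.67 for XRN3; the first and second were called only without WT 15, and the 5.8S IDs changed sign without paps1-3 16. Higher calls by length, 0 of 55 in the fit reported, were 2 with RLE factors (16.6% of all combinations higher there) and 9 with miRNA scaling (25.1%). With no count filter they were 3 (1.37% of 319238 combinations, many of them with few reads). They were 4 with the replicate block (24.1%), 2 without libraries 15 and 16 (24.6%), and 0 to 24 with 1 library left out (8.67% to 28.6%). Of the rRNA list, 4 genes were higher with miRNA scaling (21.9% of all IDs higher there). With 1 library left out 0 to 2 were higher (8.75% to 17.6% of all IDs). Lower were 3 with total reads (40.3% of all IDs lower there) and 4 with reads outside the rDNA IDs (49.2%). With no count filter 1 was lower (606 of 54956 IDs lower).

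The share of all 5 IDs differed by 6.87 percentage points without mitochondrial reads, 6.75 over nuclear reads, 0.88 at 19 to 25 nt, and −3.70 to 1.52 with 1 library left out. The 18S share differed by −0.83 to 3.99 with 1 library left out and −0.35 without libraries 15 and 16. Mean length differed by −0.70 to 0.15 nt for 18S and −0.51 to 0.16 nt for 5.8S with 1 library left out, and by 0.059 and 0.043 nt without libraries 15 and 16. The difference between genotypes in the 5.8S copy ratio at 18 nt, paps1-3 minus WT, lay between −0.00469 and 0.00417 with 1 library left out. The fits without libraries 15 and 16, and all alternatives for the gene lists and copy ratios, were chosen after seeing the data. The cause was not tested for any of these changes. The 5.8S and AT2G01021 shares, both ratios to 18S and the AT2G01021 mean length kept their direction under every alternative run; the replicate block took the snoRNA genes called higher from 54 to 60 and, beyond the calls above, changed no other call printed here. With 3 libraries a genotype, no exact permutation test between them could reach a p below 0.1, and near 2-fold changes were often missed in simulation. Depth was not the limit for the rDNA IDs, which had 30164 reads or more in every library.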

Other observations

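The next annotated gene beyond the rDNA IDs on the chromosome 2 assembly end, AT2G01023 (chr2:9648-9767 of TAIR10.1, annotated as protein-coding), carried far fewer reads than AT2G01021. It had 155, 188 and 195 reads in WT and 41, 52 and 84 in paps1-3, a log2 fold change of −0.49 with an SE of 0.19 (edgeR adjusted p = 0.095).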
